A study of Homo sapiens with 8 samples.

Results

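The 9 genes described here are the transcription factor NRF2, encoded by NFE2L2, and 8 of its well-known targets in thiol and glutathione metabolism: NQO1, GCLM, GCLC, SRXN1, TXNRD1, TXN, OSGIN1 and GSR. They were chosen by symbol, and all 9 were found among the 60617 genes of the deposited count table. The assay was RNA sequencing after poly(A) selection, in MCF-10A cells, an established human mammary epithelial line that does not form tumours. Cells labelled Empty and cells labelled NeuT were each kept untreated or were given the Hsp70 inhibitor JG-98 at 1 µM for 12 h, with 2 libraries in each of the 4 groups. All groups shared the MCF-10A background and a medium with horse serum, epidermal growth factor, hydrocortisone, insulin and cholera toxin. The labels do not spell out what either line carries, nor whether a line is 1 clone or a pool. NeuT is a common name for an activated rat counterpart of ERBB2. The labels also do not say that replicates came from separate cultures, so the p-values below measure the spread between these libraries, which may be technical.

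NRF2 is a transcription factor held at a low level by KEAP1, an adaptor that binds it and hands it to a ubiquitin ligase for degradation. Electrophiles and oxidants modify cysteines of KEAP1, NRF2 then builds up, pairs with a small MAF protein and binds antioxidant response elements near its target genes. Because this control acts mainly on the protein, the level of NFE2L2 RNA need not follow the activity of NRF2. The targets fall into a glutathione arm and a thioredoxin arm. In the first, GCLC and GCLM form glutamate-cysteine ligase, which makes the precursor of glutathione, and GSR returns oxidised glutathione to its reduced form. In the second, TXN is thioredoxin, a small protein that reduces disulfides, TXNRD1 is the reductase that recharges it, and SRXN1 is sulfiredoxin, which repairs overoxidised peroxiredoxins. NQO1 reduces quinones, and OSGIN1 is an oxidative stress-induced growth inhibitor.

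Total counts were 37341458 in treated Empty replicate 1 and between 55050996 and 56861971 in the other 7 libraries. Replicates differed by more than sampling noise, with a chi-square per gene of 4.52 and 8.20 in Empty without and with JG-98, and of 4.63 and 22.0 in NeuT. The treated NeuT libraries were therefore the least alike. Of the 10 epithelial markers, all were above 1 CPM (counts scaled by TMM to a common library size) in every library, and their summed level was 26324.7 to 37225.7 CPM. Of 6 fibroblast markers, 2 were above 1 CPM in every library, and their sum was 8.52 to 9.76 CPM in Empty and 68.4 to 83.0 CPM in NeuT, mostly through DCN. Above 1 CPM in every library were also 1 of 6 immune markers (summed level 5.28 to 12.5 CPM) and 1 of 4 endothelial markers (8.36 to 15.2 CPM). These sums differed between the lines in the same libraries as the line differences below, and their part in those was not tested. In bulk samples, fewer cells of a type and less RNA per cell cannot be told apart. Human ERBB2 did not mark the lines: its log2 difference between untreated NeuT and Empty was 0.07, with an edgeR adjusted p-value of 0.329.

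The promoter windows of the members are shown first for the 2 members in which a script found the core of the antioxidant response element. The core searched was the letters TGAC, then any 3 bases, then GC, on either strand, in RefSeq windows of GRCh38.p14 that run from 250 bases before a gene's start to 50 after it. Windows were found for 8 of the 9 members, 10 in all, and GSR was the member without one. The core lay in 3 of these 10 windows, 1 of GCLM and 2 of TXNRD1, and in 4687 of all 35116 windows, or 13.3%. The GCLM window is given on the minus strand of GRCh38 at chr1:93909456-93909680, up to the end of the core, which starts 34 bases before the RefSeq start. The TXNRD1 window is given on the plus strand at chr12:104215529-104215779 and holds 2 cores, starting 99 and 8 bases before the start. Capitals mark the cores, and 1 base at the end of each printed stretch lies in an annotated first exon.
GCLM: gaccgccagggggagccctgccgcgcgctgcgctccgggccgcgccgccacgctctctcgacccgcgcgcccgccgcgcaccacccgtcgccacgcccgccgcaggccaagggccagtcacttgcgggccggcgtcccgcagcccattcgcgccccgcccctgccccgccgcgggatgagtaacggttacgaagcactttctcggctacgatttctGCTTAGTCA
TXNRD1: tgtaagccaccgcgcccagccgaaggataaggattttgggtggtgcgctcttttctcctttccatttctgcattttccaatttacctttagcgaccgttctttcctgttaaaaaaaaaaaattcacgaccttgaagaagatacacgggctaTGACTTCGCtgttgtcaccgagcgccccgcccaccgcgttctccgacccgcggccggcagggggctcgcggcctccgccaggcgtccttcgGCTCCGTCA
A match is a description of these letters, not evidence of binding. The members without a match in their window were NFE2L2, NQO1, GCLC, SRXN1, TXN and OSGIN1, and bases outside the windows were not searched.

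All 9 members passed the filter on low counts, and their levels per length differed widely. Levels are compared between genes as RPKM, CPM divided by the gene length of the table in kilobases. For the 9 members that length counts all annotated exonic bases, so their order depends on it. In untreated Empty, TXN had the highest level at 411.7 ± 2.2 RPKM (SD, n = 2), followed by NQO1 at 106.2 ± 3.1 and GSR at 52.3 ± 1.7. TXNRD1 stood at 36.8 ± 1.3 RPKM, GCLM at 30.4 ± 1.3 and NFE2L2 itself at 20.3 ± 0.75. The lowest were the catalytic subunit GCLC at 4.83 ± 0.15 RPKM, OSGIN1 at 2.85 ± 0.25 and SRXN1 at 2.01 ± 0.012. No neighbours in this order overlapped between libraries, and the order was the same in treated Empty and untreated NeuT. In treated NeuT, TXNRD1 (38.7 ± 4.0 RPKM, SD, n = 2) stood above GSR (33.4 ± 1.7), and GCLM (20.5 ± 1.1) and NFE2L2 (20.4 ± 1.3) overlapped. The level of SRXN1 (ENSG00000271303, chromosome 20, 646615 to 653370) is uncertain, since 85.0% of its exonic bases are shared with a second gene model that had 0 to 6 counts. The overlap was 21.9% for NFE2L2, 19.4% for NQO1, 14.0% for OSGIN1, 9.68% for GCLC and 0 for the other members, and the use of strand in counting is not given in the sources used here.

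**Figure D1:**
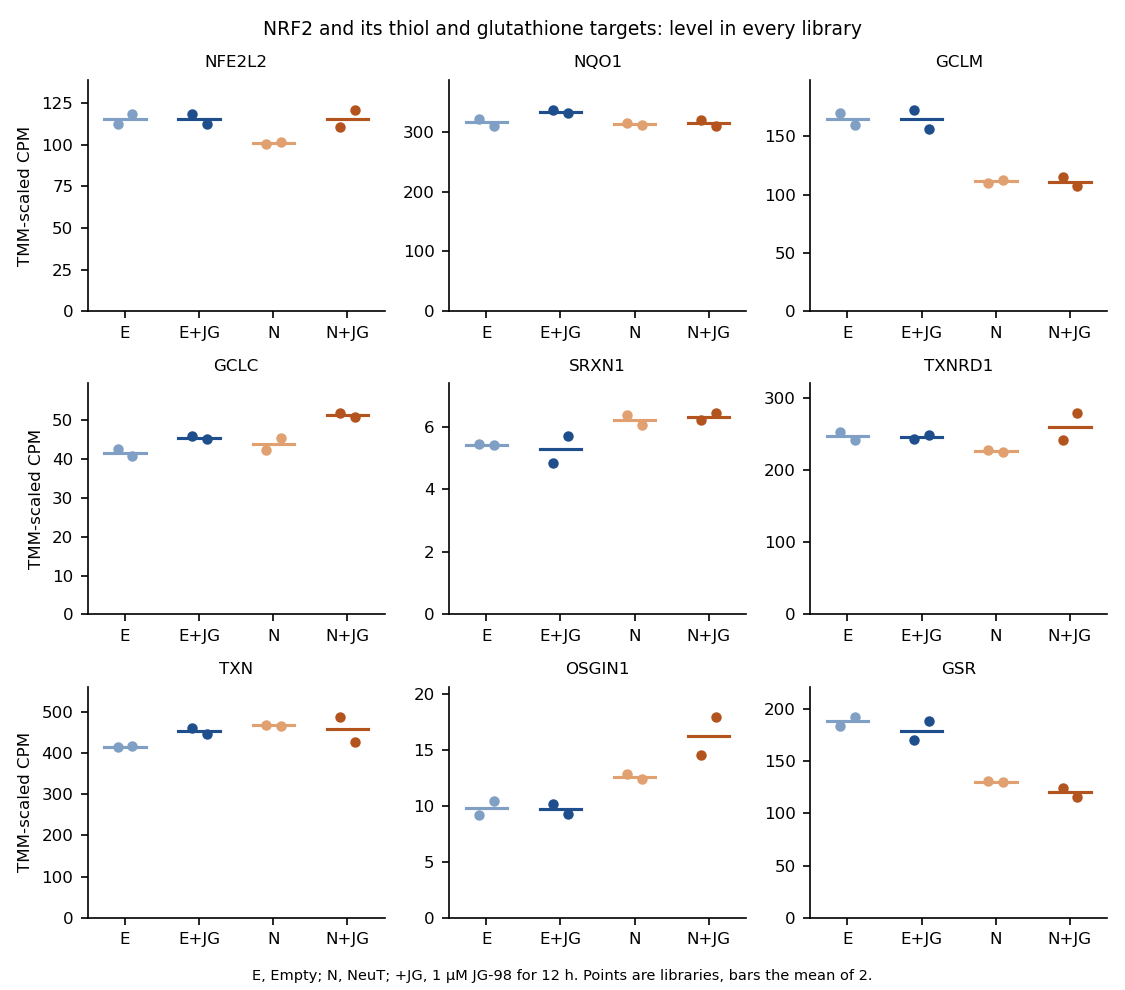
Level of each of the 9 genes in all 8 libraries, 1 panel per gene, in TMM-scaled CPM on a linear axis; points are libraries and bars are group means of 2 libraries. GCLM and GSR sit lower in all 4 NeuT libraries than in all 4 Empty libraries, and OSGIN1 sits higher, with a further gap between its untreated (12.4 and 12.8) and treated (14.6 and 18.0) NeuT libraries.

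In Empty cells the 9 genes stood close to their untreated level after JG-98. NQO1, GCLC and TXN lay higher in both treated libraries than in both untreated ones, and the share of all genes that did so was not counted there. None of the 9 was called at an edgeR adjusted p-value under 0.05, where 0.339% of the 17693 genes tested were called, and 1 of 9, TXN, had an unadjusted p-value under 0.05, where 9.83% of all genes did. DESeq2 and limma-voom also called 0 of 9, against 0.825% and 0.249% of all genes, as did the authors' deposited table, against 0.271% of its genes. The median log2 fold change of the 9 was -0.004, and that of all genes tested was -0.003.

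NFE2L2 (ENSG00000116044, chromosome 2, 177227595 to 177392697) stood at 112.3 and 118.3 CPM in untreated Empty and at 118.6 and 112.5 CPM in treated Empty. The groups overlapped, and the 95% interval of the log2 fold change was -0.13 to 0.13. In the glutathione arm, GCLC (ENSG00000001084, chromosome 6, 53497341 to 53616970) stood at 42.5 and 40.7 CPM untreated and at 45.8 and 45.2 CPM treated. Both treated libraries were higher, by 0.13 on the log2 scale (95% interval -0.01 to 0.27), with an edgeR adjusted p-value of 0.555. Its partner GCLM (ENSG00000023909, chromosome 1, 93885199 to 93909456) stood at 169.8 and 159.8 CPM untreated and at 172.4 and 156.5 CPM treated. The libraries of the GCLM groups interleaved, with a log2 fold change of -0.004 (95% interval -0.14 to 0.13). GSR (ENSG00000104687, chromosome 8, 30678066 to 30727846) stood at 183.9 and 192.7 CPM untreated and at 170.1 and 188.4 CPM treated, which also overlapped.

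In the thioredoxin arm, TXN (ENSG00000136810, chromosome 9, 110243810 to 110256507) stood at 414.3 and 417.4 CPM in untreated Empty and at 462.0 and 447.0 CPM in treated Empty. Both treated libraries lay above both untreated ones, with a log2 fold change of 0.13 (SE 0.060, 95% interval 0.001 to 0.26) and an edgeR adjusted p-value of 0.502. TXNRD1 (ENSG00000198431, chromosome 12, 104215779 to 104350307) stood at 253.2 and 241.2 CPM untreated and at 242.9 and 249.1 CPM treated, with overlapping groups. SRXN1 stood at 5.44 and 5.40 CPM untreated and at 4.83 and 5.71 CPM treated, a log2 fold change of -0.03 whose 95% interval, -0.31 to 0.24, was the widest of the 9 in this comparison. Of the remaining targets, NQO1 (ENSG00000181019, chromosome 16, 69706996 to 69726668) stood at 322.1 and 309.0 CPM untreated and at 336.2 and 331.4 CPM treated. Both treated NQO1 libraries were higher, by 0.08 on the log2 scale (95% interval -0.03 to 0.19), with an edgeR adjusted p-value of 0.647. OSGIN1 (ENSG00000140961, chromosome 16, 83948282 to 83966332) stood at 9.20 and 10.4 CPM untreated and at 10.1 and 9.29 CPM treated, which overlapped.

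In NeuT cells 4 of the 9 genes stood higher in both treated libraries than in both untreated ones, where 21.9% of all genes tested did, and none passed the test. The same 4 were those with an unadjusted p-value under 0.05, NFE2L2, GCLC, TXNRD1 and OSGIN1, where 16% of all genes had one. The edgeR adjusted p-value was under 0.05 for 0 of 9, against 3.01% of all genes tested. DESeq2 and limma-voom called 0 of 9 as well, against 4.14% and 2.85% of all genes, as did the authors' deposited table, against 2.97% of its genes. The median log2 fold change of the 9 was 0.03, and that of all genes was 0.0002.

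OSGIN1 had the largest value, at 12.8 and 12.4 CPM in untreated NeuT and 14.6 and 18.0 CPM in treated NeuT. Both treated libraries were higher, and the log2 fold change was 0.37 (SE 0.11, 95% interval 0.13 to 0.60), with an edgeR adjusted p-value of 0.0894. GCLC stood at 42.3 and 45.4 CPM untreated and at 51.7 and 50.8 CPM treated, a log2 fold change of 0.23 (95% interval 0.09 to 0.36) with an edgeR adjusted p-value of 0.0773. Its treated libraries lay closer to each other than its untreated ones. TXNRD1 stood at 228.3 and 224.8 CPM untreated and at 241.2 and 278.7 CPM treated. NFE2L2 stood at 100.4 and 101.5 CPM untreated and at 110.4 and 120.7 CPM treated. All treated libraries of both genes lay above the untreated ones, by 0.20 (95% interval 0.06 to 0.33) for TXNRD1 and 0.19 (95% interval 0.07 to 0.32) for NFE2L2 on the log2 scale, with edgeR adjusted p-values of 0.112 and 0.104. In each of TXNRD1, NFE2L2 and OSGIN1, replicate 2 was the higher treated library. Without treated NeuT replicate 1, all 3 were called, at edgeR adjusted p-values of 0.00025 for TXNRD1, 0.0045 for NFE2L2 and 0.0035 for OSGIN1, and their log2 fold changes were 0.30, 0.26 and 0.51. In that fit 11.4% of all genes tested were called, against 3.01% with all libraries. Without treated NeuT replicate 2 none of them was called, and the values were 0.08 for TXNRD1, 0.12 for NFE2L2 and 0.20 for OSGIN1, with edgeR adjusted p-values of 0.580, 0.426 and 0.532. With no filter on low counts, TXNRD1 and OSGIN1 were called, at 0.0299 and 0.0182, as were 3.13% of the 31967 genes then tested.

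The other 5 members stayed near their untreated level in NeuT. NQO1 stood at 315.0 and 311.1 CPM untreated and at 319.7 and 310.5 CPM treated, a log2 fold change of 0.01 (95% interval -0.10 to 0.12). GCLM stood at 110.2 and 112.5 CPM untreated and at 115.2 and 107.0 CPM treated, -0.003 on the log2 scale (95% interval -0.14 to 0.13). Both of these targets had overlapping groups. SRXN1 stood at 6.36 and 6.05 CPM untreated and at 6.22 and 6.42 CPM treated (log2 0.03, 95% interval -0.24 to 0.29). TXN stood at 469.1 and 467.4 CPM untreated and at 489.1 and 426.8 CPM treated, so its treated libraries lay on either side of the untreated ones. GSR was the member with both treated libraries lower, at 124.7 and 116.1 CPM against 130.7 and 130.3 CPM. Its log2 fold change was -0.12 (95% interval -0.25 to 0.01), with an edgeR adjusted p-value of 0.379. Without treated NeuT replicate 1 the GSR value was -0.17 (0.0761), and without replicate 2 it was -0.07 (0.710).

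**Figure D2:**
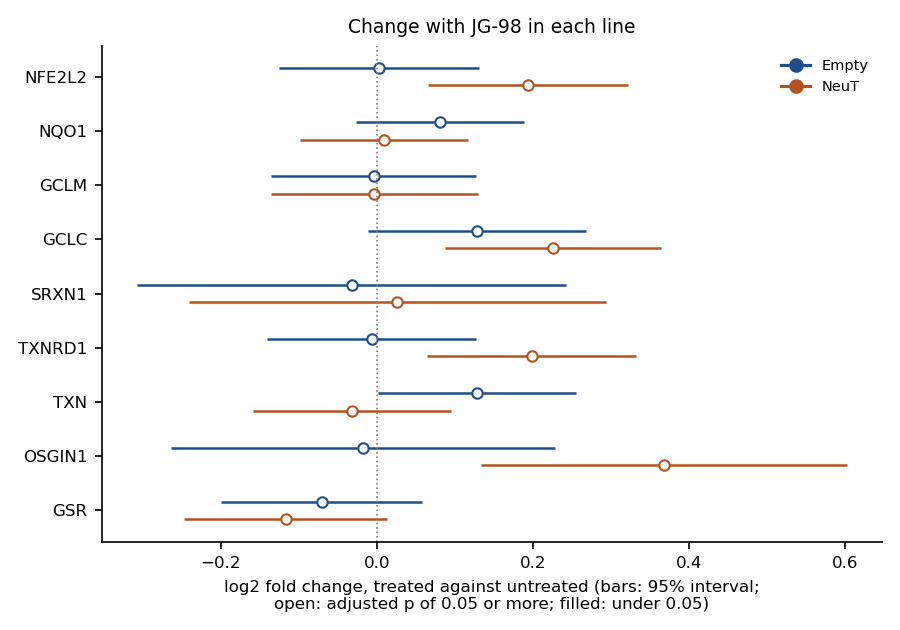
Log2 fold change with JG-98 for each of the 9 genes in Empty and in NeuT; points are edgeR estimates from 2 libraries per group and bars are 95% intervals. In Empty the values run from -0.07 for GSR to 0.13 for GCLC, and in NeuT from -0.12 for GSR to 0.37 for OSGIN1.

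Whether the drug acted differently in the lines was tested with the interaction of line and drug, and it was not shown for any member. The count called was 0 of 9 by edgeR, against 0.00565% of all genes, and 0 of 9 by DESeq2 and limma-voom, against 0.107% and 0.00565%. At an unadjusted p-value under 0.05 there were 3 of 9 members, NFE2L2, TXNRD1 and OSGIN1, and 7.79% of all genes. The difference between the log2 fold changes, NeuT minus Empty, was 0.39 (95% interval 0.05 to 0.73) for OSGIN1, 0.21 (95% interval 0.02 to 0.39) for TXNRD1 and 0.19 (95% interval 0.01 to 0.37) for NFE2L2. Their edgeR adjusted p-values were 0.595, 0.604 and 0.610. For TXN it was -0.16 (95% interval -0.34 to 0.02), with an adjusted p-value of 0.670. Without treated NeuT replicate 1, the interaction was called for TXNRD1 (0.30, edgeR adjusted p-value 0.0102) and TXN (-0.27, 0.0143), and 777 of all genes were called, or 4.16%, where the 8 libraries gave 1. Without treated NeuT replicate 2 it was 0.08 for TXNRD1 and -0.08 for TXN, with edgeR adjusted p-values of 0.857 and 0.858, and 0.21 for OSGIN1 and 0.11 for NFE2L2.

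More members were called between the lines than with the drug, and those of the glutathione arm differed from each other. GCLM, the modifier subunit of glutamate-cysteine ligase, and GSR, glutathione reductase, were lower in NeuT, and OSGIN1 was higher, with and without JG-98. In untreated cells 2 of 9 members were called higher in NeuT (TXN and OSGIN1), where 21.2% of all genes were, and 3 were called lower (GCLM, GSR and NFE2L2), where 20.8% of all genes were. In treated cells 2 were called higher (GCLC and OSGIN1), against 21.7% of all genes, and 2 were called lower (GCLM and GSR), against 20% of all genes. Read against these shares of all genes, the counts of 2 or 3 of 9 are near the background. The median log2 difference of the 9 was -0.01 in untreated and 0.01 in treated cells, and that of all genes was -0.02 and -0.001. The groups of the line comparisons are those of the drug comparisons, so the values of both share libraries.

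GCLM was lower in untreated NeuT, a difference of -32.4%, with a log2 difference of -0.57 (SE 0.062, 95% interval -0.70 to -0.43) and an edgeR adjusted p-value of 1.3e-06. In treated cells its log2 difference was -0.56 (SE 0.063), at an edgeR adjusted p-value of 1.3e-06. All 4 NeuT libraries of GCLM lay between 107.0 and 115.2 CPM, below the lowest Empty library at 156.5 CPM. GSR was lower in NeuT as well, with a difference of -30.7% in untreated cells (log2 -0.53, SE 0.061, edgeR adjusted p-value 2.2e-06) and -32.9% in treated cells (log2 -0.58, SE 0.062, 8.7e-07). The highest NeuT library of GSR, at 130.7 CPM, was below its lowest Empty library, at 170.1 CPM. Both genes were called in both comparisons in every alternative tried, with adjusted p-values of at most 0.00033.

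GCLC, the catalytic partner of GCLM, was called lower in neither comparison. Its untreated libraries overlapped between the lines, with a log2 difference of 0.08 (95% interval -0.06 to 0.21) and an edgeR adjusted p-value of 0.392. Over the alternatives tried, this difference ran from 0.007 to 0.14. In treated cells GCLC was higher in NeuT by 0.17 (95% interval 0.03 to 0.31), at an edgeR adjusted p-value of 0.0443. This call lay near the threshold and was lost in 7 of the 8 fits that left out 1 library, all but the one without treated NeuT replicate 2, at adjusted p-values of 0.0556 to 0.145, and under DESeq2 (0.0577), with no filter (0.0559), with total counts (0.260) and in the fit of 4 libraries (0.119). The ratio of GCLM to GCLC, formed within each library from RPKM, describes the balance of the RNAs of the subunits. Its size depends on the gene lengths used, 5426 bases for GCLM and 8618 for GCLC, so only differences between libraries are read. The ratio was 6.34 and 6.24 in untreated Empty and 5.98 and 5.50 in treated Empty. In NeuT it was 4.14 and 3.93 without the drug and 3.54 and 3.35 with it. Every NeuT library was below every Empty library, and in each line both treated libraries were below both untreated ones. The ratio is a description with no test, and its parts are the values above.

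OSGIN1 was higher in NeuT by 0.36 (SE 0.11, 95% interval 0.12 to 0.60) in untreated cells, with an edgeR adjusted p-value of 0.0161. In treated cells it was 67.9% higher, a log2 difference of 0.75 (SE 0.11, 95% interval 0.51 to 0.99) with an edgeR adjusted p-value of 4.4e-05. All 4 NeuT libraries, at 12.4 to 18.0 CPM, lay above the highest Empty library, at 10.4 CPM. The call in treated cells was made in every alternative tried, while that in untreated cells was lost without untreated Empty replicate 1 (0.28, adjusted p-value 0.162) and without untreated NeuT replicate 1 (0.35, adjusted p-value 0.0883).

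NFE2L2 and TXN were called between the untreated lines, with small differences. NFE2L2 was lower in untreated NeuT, a difference of -12.4%, with a log2 difference of -0.19 (95% interval -0.32 to -0.06) and an edgeR adjusted p-value of 0.0174. In treated cells its log2 difference was 0.0001 (95% interval -0.13 to 0.13), and the groups overlapped. TXN was higher in untreated NeuT by 0.17 (95% interval 0.04 to 0.30), with 0.0297 as its edgeR adjusted p-value, and its treated groups overlapped, with 0.01 (95% interval -0.12 to 0.14). The call of NFE2L2 was lost without untreated Empty replicate 2 (adjusted p-value 0.172) and without untreated NeuT replicate 1 (0.146) or 2 (0.120). The call of TXN was lost without any 1 of the 4 untreated libraries, with adjusted p-values of 0.0907 to 0.144, and with total counts (0.10, 0.200). TXNRD1, whose untreated NeuT libraries were both below the Empty ones, had a log2 difference of -0.13 with an edgeR adjusted p-value of 0.125 and was called with total counts (-0.19, 0.0155), in the fit of 4 libraries (-0.12, 0.00688) and without treated NeuT replicate 1 (-0.11, 0.0381) or 2 (-0.11, 0.0372). In treated cells TXNRD1 had a log2 difference of 0.08 (adjusted p-value 0.345). It was called without treated NeuT replicate 1 (0.19, 0.00482), and without treated NeuT replicate 2 its sign turned (-0.03, 0.744).

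NQO1 and SRXN1 were called in neither comparison of the lines. NQO1 differed by -0.01 in untreated cells (95% interval -0.12 to 0.10) and by -0.08 in treated cells (95% interval -0.19 to 0.02), with edgeR adjusted p-values of 0.882 and 0.213. With total counts in place of scaling factors, the treated difference of NQO1 was -0.16 and was called (0.0181). Both NeuT libraries of SRXN1 were above both Empty ones, by 0.19 (95% interval -0.07 to 0.46) in untreated and 0.25 (95% interval -0.02 to 0.53) in treated cells on the log2 scale, with edgeR adjusted p-values of 0.242 and 0.130. For SRXN1 the treated difference was 0.15 without treated Empty replicate 1 (adjusted p-value 0.499) and 0.39 without treated Empty replicate 2 (0.0718). With total counts, the SRXN1 differences were 0.13 in untreated (0.463) and 0.18 in treated cells (0.297). Total counts moved the median difference of all genes between the lines from -0.02 to -0.08 in untreated and from -0.001 to -0.08 in treated cells. The share of called genes that were higher in NeuT went from 50.5% to 40.7% and from 52.0% to 41.0%.

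**Figure D3:**
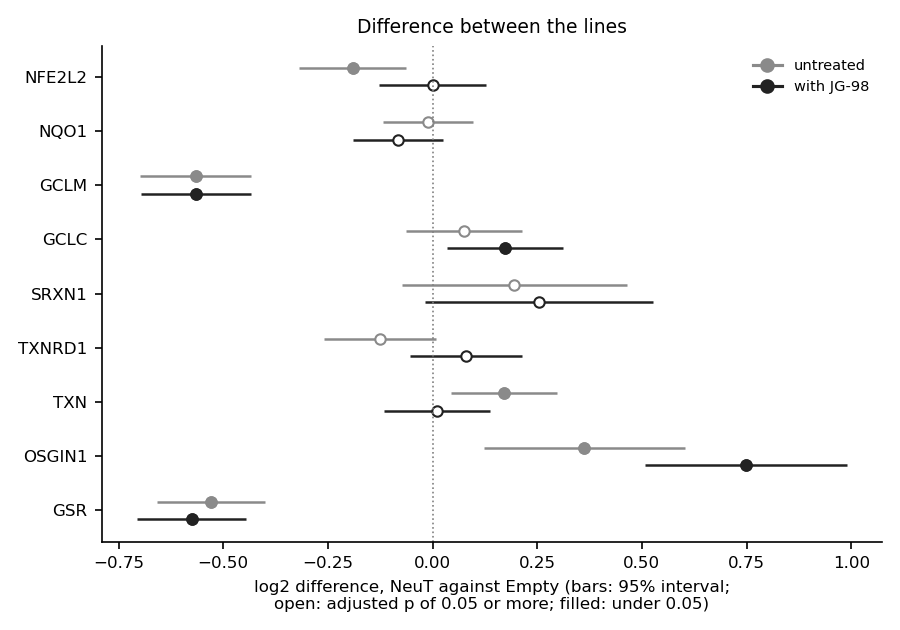
Log2 difference between NeuT and Empty for each of the 9 genes in untreated and in treated cells; points are edgeR estimates from 2 libraries per group and bars are 95% intervals. GCLM and GSR lie at -0.53 to -0.58 in both, OSGIN1 at 0.36 and 0.75, and the other members between -0.19 and 0.25.

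**Figure D4:**
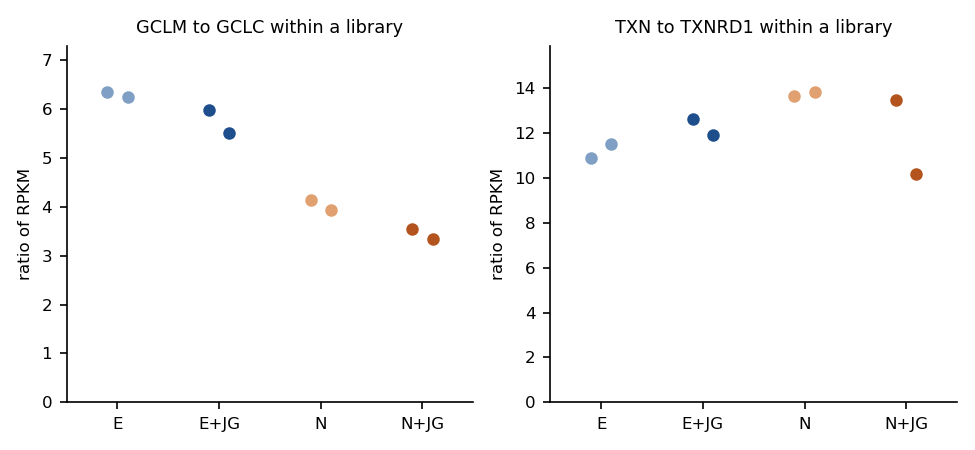
Ratio of GCLM to GCLC and of TXN to TXNRD1 in each library, formed from RPKM; points are libraries, with Empty (E) and NeuT (N) groups labelled on the axis. The ratio of GCLM to GCLC is 5.50 to 6.34 in the Empty libraries and 3.35 to 4.14 in the NeuT libraries.

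In the thioredoxin pair, the ratio of TXN to TXNRD1 in RPKM was 10.9 and 11.5 in untreated Empty and 12.6 and 11.9 in treated Empty. In NeuT it was 13.7 and 13.8 without the drug and 13.5 and 10.2 with it. Treated NeuT replicate 2 thus had the lowest ratio of all libraries, and its replicate 1 lay close to the untreated ones.

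The genes whose profile over the 8 libraries was most like that of a member were sought for the 3 members whose group means spanned at least 0.5 on the log2 scale. The span was 0.57 for GCLM, 0.64 for GSR and 0.71 for OSGIN1. Likeness was the root mean square difference between log2 CPM profiles, each centred on its own mean, over 12746 candidate genes. For GCLM the nearest was SLC25A5 at 0.023, a mitochondrial exchanger of ADP and ATP, followed by PCCA-DT at 0.029 and TRIM47 at 0.030. For GSR they were RHPN1 at 0.036, PRRG4 at 0.038 and LGR4 at 0.039. OSGIN1 had less close neighbours, with TP53INP1, a p53-induced stress protein, at 0.053, SYT1 at 0.065 and SLC46A3 at 0.067. None of these genes is another member.

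Around the members, 130 further genes of NRF2 control, NRF2 targets and thiol, glutathione and NADPH metabolism were arranged in 6 lists. Of these, 118 genes were tested. The lists were chosen with earlier results of these data known, and whether NRF2 drives their genes was not tested. With JG-98 the list with the most called genes was that for cystine and cysteine supply, where 6 of 8 tested genes rose in NeuT and 1 in Empty by edgeR, and 6 and 5 by DESeq2 and 6 and 2 by limma-voom. For comparison, 2.01% of all genes tested were called higher in NeuT and 0.26% in Empty. Called lower with JG-98 were 178 of the 17693 genes in NeuT and 14 in Empty. The edgeR counts of the other lists with JG-98, given below, stand against the same values. The median log2 fold change of that list was 0.70 in NeuT and 0.32 in Empty, and those of the other 5 lists lay between -0.05 and 0.11 in both lines. Counts of list genes called between the lines, given below, stand against 21.2% of all genes higher and 20.8% lower in untreated NeuT, and 21.7% and 20% in treated NeuT. Cysteine is the limiting building block of glutathione, so this list stands upstream of GCLC and GCLM, neither of which was called with JG-98.

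SLC7A11, the cystine-glutamate exchanger of the cell membrane and an NRF2 target that also responds to amino acid stress, stood at 14.4 and 11.7 CPM in untreated NeuT and 63.4 and 94.9 CPM in treated NeuT. Both treated libraries were far above both untreated ones, by 2.60 on the log2 scale (SE 0.21), with an edgeR adjusted p-value of 0.0024. In Empty it stood at 11.3 and 12.8 CPM untreated and at 28.6 and 28.1 CPM treated. The Empty groups did not overlap either, and the log2 fold change of 1.23 (SE 0.22) had an edgeR adjusted p-value of 0.142, but 0.00199 without robust estimation of the dispersion, 7.2e-05 in DESeq2 and 0.0171 in limma-voom, and the authors' deposited table gives 1.27 with 0.00846. CTH, which makes cysteine from cystathionine, stood at 2.63 and 2.73 CPM in untreated NeuT and at 8.92 and 12.5 CPM in treated NeuT, a rise of 2.0 (SE 0.16, edgeR adjusted p-value 2.0e-06). In Empty it rose by 0.83 (SE 0.14, adjusted p-value 0.0150), a call lost without any 1 of the 4 Empty libraries, at 0.0977 to 0.338. SLC1A4, a transporter of neutral amino acids including cysteine, rose by 2.59 (SE 0.23, edgeR adjusted p-value 0.00021) in NeuT, and its value in Empty was 1.10 (SE 0.22, 0.0878). SLC3A2, the heavy chain that SLC7A11 pairs with, rose by 0.55 (SE 0.072, adjusted p-value 0.00046) in NeuT, and its value in Empty was 0.24 (0.229). The interaction was called by edgeR and limma-voom for 0 of the 8 genes and by DESeq2 for 3, and 6 had an unadjusted p-value under 0.05 in edgeR, against 0.00565%, 0.107% and 7.79% of all genes. Its edgeR adjusted p-value was 0.490 for SLC7A11 and 0.124 for CTH. Between the lines 1 of the 8 was higher and 4 lower in untreated NeuT, and 3 and 2 in treated NeuT.

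Of the 14 genes that control NRF2, 3 rose in NeuT and 1 in Empty. MAFF, a small MAF protein, rose in Empty by 0.60 (SE 0.10, edgeR adjusted p-value 0.0136), and in NeuT by 0.44 (SE 0.096, 0.0210). The Empty call was lost without untreated Empty replicate 1 or 2 or treated Empty replicate 1, at 0.137 to 0.314, and the NeuT call without untreated NeuT replicate 1 or 2 or treated NeuT replicate 2, at 0.117 to 0.247. In NeuT the MAFF value was 0.56 (adjusted p-value 0.00012) without treated replicate 1 and 0.29 (0.118) without treated replicate 2. In the fit of only the 4 libraries compared, the NeuT calls of MAFF (0.0627), BACH1 (0.127) and SQSTM1 (0.142) were all lost. BACH1, a repressor at antioxidant response elements, rose by 0.36 (SE 0.088, adjusted p-value 0.0328) in NeuT, a call lost in 7 of the 8 fits that left out 1 library, all but the one without treated NeuT replicate 1 (0.49, adjusted p-value 0.00017), at 0.0518 to 0.322, and its value was 0.20 without treated NeuT replicate 2. SQSTM1, the autophagy receptor p62 that sequesters KEAP1, rose by 0.26 (SE 0.064, adjusted p-value 0.0341) in NeuT and was not called without any 1 of the 4 untreated libraries or treated NeuT replicate 2, at 0.0782 to 0.355, and its value was 0.14 without the last of these and 0.36 (2.4e-05) without treated NeuT replicate 1. The SQSTM1 interaction was 0.24 (adjusted p-value 0.556), was called without treated NeuT replicate 1 (0.33, 0.0044) and was 0.12 (0.751) without replicate 2. KEAP1 itself was not called with JG-98 in either line, at -0.12 in Empty and -0.07 in NeuT, and was lower in NeuT than in Empty, with -0.26 in untreated (adjusted p-value 0.0029) and -0.22 in treated cells (0.0112). NFE2L3, an NRF2 relative, was 0.96 higher in untreated NeuT on the log2 scale and 0.97 higher in treated NeuT. BACH1 was also higher in NeuT, by 0.67 in untreated (edgeR adjusted p-value 1.3e-05) and 1.26 in treated cells (7.8e-09). Between the lines without the drug, 7 of the 14 were higher in NeuT and 3 lower, and 9 and 2 with the drug.

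Outside the cystine genes, the glutathione list had 2 of 26 tested genes higher with JG-98 in NeuT and 0 in Empty by edgeR, where 4 had an unadjusted p-value under 0.05 and DESeq2 and limma-voom each called 1. They were CHAC1, which degrades glutathione, at 4.09 (SE 0.42, edgeR adjusted p-value 0.0175), and GPX8, a peroxidase of the endoplasmic reticulum, at 0.43 (SE 0.062, adjusted p-value 0.00081). In Empty, CHAC1 stood at 2.04 and 1.40 CPM untreated and at 13.9 and 9.96 CPM treated. The Empty groups of CHAC1 did not overlap, and the log2 fold change of 2.77 (SE 0.45) had an edgeR adjusted p-value of 0.175. The interaction was not called for it, at 0.702. Its call in NeuT was lost without untreated NeuT replicate 1 (0.149) or 2 (0.185), without untreated Empty replicate 1 (0.0509), with the replicate block (0.0584) or in the fit of 4 libraries (0.0810). Between the untreated lines 6 of the 26 were higher and 6 lower in NeuT, with GPX3 at 1.94, GPX1 at 0.68 and GSTO1 at 0.64. In treated cells 6 were higher and 7 lower by edgeR, and 6 and 4 by DESeq2.

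In the thioredoxin and peroxiredoxin list, 2 of 25 genes rose in NeuT and 1 fell in Empty by edgeR, and DESeq2 and limma-voom each called 1 higher in Empty as well. TXNIP, which binds and inhibits thioredoxin, stood at 149.4 and 154.5 CPM in untreated Empty and at 102.8 and 100.4 CPM in treated Empty, where it fell by 0.58 on the log2 scale (SE 0.055, edgeR adjusted p-value 7.5e-05). In NeuT it stood at 432.1 and 415.4 CPM untreated and at 478.3 and 508.3 CPM treated. It rose there by 0.22 (SE 0.053, adjusted p-value 0.0316), a call lost without any 1 of the 4 untreated libraries or treated NeuT replicate 2, at 0.0806 to 0.434, and in the fit of 4 libraries (0.140). The TXNIP value in NeuT was 0.26 (adjusted p-value 0.0010) without treated replicate 1 and 0.17 (0.112) without treated replicate 2. The interaction of 0.80 (SE 0.076, edgeR adjusted p-value 0.00018) was the 1 interaction called among all genes. SESN2, a sestrin, rose by 1.42 (SE 0.20, adjusted p-value 0.0274) in NeuT, a call lost without any 1 of the 4 Empty libraries or the untreated NeuT libraries, at 0.0511 to 0.164, with the replicate block (0.0732) and in the fit of 4 libraries (0.112). In Empty, SESN2 stood at 16.5 and 15.6 CPM untreated and at 35.1 and 29.8 CPM treated, without overlap, a log2 fold change of 1.01 (SE 0.22) with an edgeR adjusted p-value of 0.232. Between the lines 8 of the 25 were higher and 4 lower in untreated NeuT, and 8 and 3 in treated NeuT.

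For NADPH supply, which feeds both GSR and TXNRD1, 2 of 13 tested genes rose in NeuT and 1 in Empty by edgeR, where DESeq2 called 2. Those called by edgeR were all mitochondrial enzymes of folate metabolism, and whether they supply GSR or TXNRD1 was not tested. MTHFD2 rose by 0.80 (SE 0.071, edgeR adjusted p-value 7.0e-06) in NeuT and by 0.39 (SE 0.070, adjusted p-value 0.0214) in Empty, and ALDH1L2 rose by 1.14 in NeuT (SE 0.097, adjusted p-value 1.5e-05). In Empty, ALDH1L2 stood at 43.9 and 46.3 CPM untreated and at 61.5 and 58.5 CPM treated, without overlap, a log2 fold change of 0.41 (SE 0.096) with an edgeR adjusted p-value of 0.114. The Empty call of MTHFD2 was lost without any 1 of the 4 Empty libraries or the untreated NeuT libraries, at 0.0523 to 0.455. Between the untreated lines 7 of the 13 were lower in NeuT and 2 higher, with MTHFD1 at -0.58, ALDH1L2 at -0.51 and IDH2 at -0.44. In treated cells 6 were lower and 1 higher.

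Among 32 tested genes of the list of other NRF2 targets, 1 was called with JG-98 in each line by edgeR and limma-voom. DESeq2 called 1 more in NeuT, CBR1, a carbonyl reductase named after its values were seen, at -0.26 (DESeq2 adjusted p-value 0.0353). The gene called by edgeR was HMOX1, heme oxygenase, in both lines, at 11.7 and 10.8 CPM in untreated Empty against 16.7 and 16.8 CPM treated. In NeuT it stood at 15.4 and 15.0 CPM untreated against 21.5 and 25.2 CPM treated. The rise of 0.57 in Empty (SE 0.098, edgeR adjusted p-value 0.0134) was not called without any 1 of the 4 Empty libraries, at 0.0986 to 0.310. That of 0.62 in NeuT (SE 0.094) was called at 0.0012. Between the lines, 16 of the 32 were higher and 6 lower in untreated NeuT, and 14 and 9 in treated NeuT. In untreated cells the largest log2 differences among called genes that averaged 50 counts or more were 1.75 for AKR1B10 and 1.55 for its relative AKR1B1, an aldose reductase, and 1.64 for the noncoding RNA LUCAT1. In treated cells they were -1.49 for PIR, pirin, 1.46 for AKR1B1 and 1.39 for LUCAT1.

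**Figure D5:**
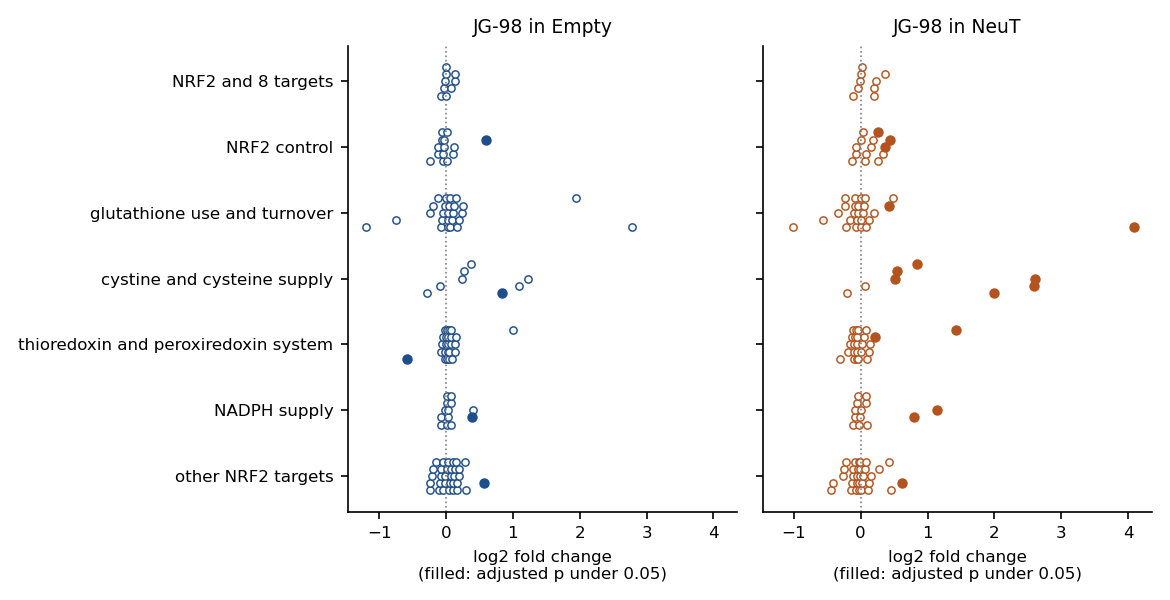
Log2 fold change with JG-98 in Empty and NeuT for every tested gene of the 9 members and the 6 lists. Each point is 1 gene, filled where its edgeR adjusted p-value is under 0.05, and the dotted line marks no change. The cystine and cysteine supply list has medians of 0.32 and 0.70, and the 9 members have medians of -0.004 and 0.03.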

How the data were processed

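RNA was sequenced from 8 libraries of MCF-10A cells, grouped by their titles into 4 groups of 2. Per the file headers, the authors deposited raw counts for every gene in 1 table, with gene lengths, and 1 table per line of their own comparison with JG-98, which holds log2 fold changes, p-values and a test score. Trim Galore 0.5.0, FastQC 0.11.7, HISAT2 2.1.0, SAMtools 1.9, featureCounts 1.6.3, limma and builds hg38 and GRCh38 are named in the submitters' processing notes. Strand use, annotation release and the rule for reads that match several places are not given in the sources used here. Reads that match overlapping gene models could therefore be lost or shared.

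Symbols were found for 60261 of 60617 identifiers. The deposited counts went into edgeR 4.0.16 (R 4.3.3). The filterByExpr limits were a minimum count of 10 and a total of 15, and scaling was by TMM. The quasi-likelihood fit with robust dispersion had 1 coefficient per group over all 8 libraries. Benjamini-Hochberg adjustment covered 17693 genes, and a gene is called where the adjusted p-value is under 0.05. The standard error is the size of the log2 fold change over the square root of F. With 2 libraries per group, no exact permutation test could reach 0.05, so all tests rest on a spread shared across genes. In 1 library, 3 counts equal 0.0803 CPM in the shallowest and 0.0528 CPM in the deepest library, and such floors cover counting error only. Scripts were tested on simulated data.

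The members and lists were chosen with earlier results of these data known. All members are named. List genes are named if called, at most the 3 largest per list and comparison with a mean of at least 50 counts, and SLC7A11, HMOX1, KEAP1 and BACH1 whatever their values. Neighbours in profile are the 3 nearest genes of those with at least that mean count. Alternatives were RLE size factors, total counts, no filter, at least 10 counts in every library, limma-voom (limma 3.58.1), DESeq2 1.42.0, no robust estimation, the replicate block, 4 libraries, and leaving out each library. Deviations of same-numbered libraries were correlated between groups by -0.101 to 0.244 over 9551 genes, so numbers were not taken as pairs. Since r was -0.101 between the NeuT groups, a block with their numbers crossed was added after seeing the data.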

Additional observations from a re-analysis of the deposited data

Results flagged for a closer look

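In 14 of the 118 list genes tested, the treated libraries lay apart from the untreated ones in opposite directions in the lines, or 11.9%, against 5.76% of all genes tested, and TXNIP and BACH1 are those of the 14 named in the report. For TXNIP, the inhibitor of thioredoxin, both treated Empty libraries were below and both treated NeuT libraries above the untreated ones, and the difference between the log2 fold changes was 0.80 (edgeR adjusted p-value 0.00018). For BACH1, a repressor at antioxidant response elements, the libraries stood at 18.7 and 18.8 CPM in untreated Empty, 15.4 and 16.4 CPM in treated Empty, 29.7 and 29.9 CPM in untreated NeuT and 34.4 and 42.0 CPM in treated NeuT. The difference between its log2 fold changes was 0.59, and its test did not pass, with an edgeR adjusted p-value of 0.296. Without treated NeuT replicate 1 it was 0.72 and passed (0.00037), and without treated NeuT replicate 2 it was 0.43 and did not (0.218).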

How the results depend on the processing

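The replicate block called 0 of 9 members with JG-98 in each line, as without it, and the same numbers of members between the lines. It ended no other call of a named gene than those of CHAC1 (0.0584) and SESN2 (0.0732) in NeuT. The crossed pairing of JG-98 in NeuT, chosen after seeing the data, called 1 member, GCLC, and 4.49% of all genes. No filter called 2 members in NeuT. Of all genes, JG-98 in Empty had 60 called, but 282 with no filter, 146 by DESeq2, 223 in the fit of 4 libraries and 9 to 417 without 1 library. In NeuT it had 533, but 1000 with no filter, 183 in the fit of 4 libraries and 132 to 2133 without 1 library. The interaction had 1, but 2 with total counts, 138 with no filter, 19 by DESeq2, 3 without robust estimation and 1 to 777 without 1 library. Leaving out 1 library gave 0 members called in Empty, 0 to 3 in NeuT, 0 to 2 for the interaction, 2 to 6 between untreated and 3 to 4 between treated lines. The untreated lines had 5461 to 8218 genes called and the treated ones 5951 to 7409. The cause of these differences was not tested.

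Log2 values near zero changed sign. NFE2L2 with JG-98 in Empty was -0.0039 with no filter. NFE2L2 between treated lines was -0.075 with total counts, -0.00068 with the replicate block and -9.1e-05 in the fit of 4 libraries, and TXN there was -0.063 with total counts. GCLM in NeuT was 0.00058 in the fit of 4 libraries. The GCLM interaction was -0.0059 with RLE and DESeq2, -0.0044 with total counts, -0.0043 with at least 10 counts and -0.00035 with the replicate block. Leaving out 1 library turned signs in these ranges. For JG-98 in Empty they were -0.035 to 0.040 for NFE2L2, -0.075 to 0.063 for GCLM, -0.17 to 0.075 for SRXN1, -0.043 to 0.029 for TXNRD1, -0.10 to 0.074 for OSGIN1 and -0.15 to 5.3e-05 for GSR. For JG-98 in NeuT they were -0.014 to 0.022 for NQO1, -0.059 to 0.041 for GCLM, -0.017 to 0.060 for SRXN1 and -0.14 to 0.055 for TXN. For the interaction they were -0.066 to 0.072 for GCLM, -0.049 to 0.19 for SRXN1 and -0.12 to 0.032 for GSR. Between untreated lines NQO1 ran from -0.042 to 0.020. Between treated lines NFE2L2 ran from -0.064 to 0.071, TXNRD1 from -0.027 to 0.19 and TXN from -0.083 to 0.11. The cause was not tested. With 2 libraries per group, a fit without 1 library assumes that the lone library varies like the other groups.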
